A study of Homo sapiens with 17 samples.

Results

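ETV4 was depleted from PC3 cells with a second short hairpin RNA (shRNA B), and the 98 genes whose transcripts were listed lower than in the retroviral control are described here. PC3 is an established human prostate cancer cell line. The members are all genes in the authors' deposited table for this comparison, 98 of the 1400 genes listed in at least 1 of the 4 comparisons of the series. The compared groups were 3 libraries of cells infected with retrovirus carrying ETV4 shRNA sequence B and 2 libraries of cells infected with a retroviral control, all harvested 7 days after infection of early passage cells. The labels call the control a control shRNA, whereas the series design text calls it an empty vector. The other tables used beside it compare 3 libraries each of PC3 cells with retroviral ETV4 shRNA A against the same retroviral control, and with lentiviral MED25 shRNA A or B against 3 libraries with a lentiviral luciferase shRNA, all at 7 days. The labels give no selection, clone or culture of origin, so whether replicates came from separate cultures is not known.

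ETV4 is a transcription factor of the ETS family, whose DNA-binding domain recognises a GGAA core. It belongs to the PEA3 subfamily, acts downstream of growth factor receptors and ERK signalling, and can bind next to AP-1 factors at composite sites. Its activation domain is known to contact MED25, a subunit of the Mediator complex that links activators to RNA polymerase II, and the series also depleted MED25 with shRNAs A and B. In prostate cancer, ETS factors of this kind are known for their part in cell migration and invasion.

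Each gene in the authors' deposited table has a log2 ratio of knockdown over control and an adjusted p on a scale that is not stated, called a score below. There are no values per library, so no SD can be given and no ratio was tested again. The percentages below are the ratio turned into the share of the control level that was left. The authors' deposited table holds only genes lower after knockdown, the ratio nearest to 0 being −0.59, so a gene that is missing cannot be called unchanged and genes that rose were not analysed here. Because all members are lower by construction, their common direction is not a finding.

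The targeted transcript itself headed the list. ETV4 (ENSG00000175832, chromosome 17) was at 15.8% of control, a log2 ratio of −2.67, in the authors' deposited table. The sign of ETV4 was used in reading the direction of the ratios, so it is no independent check of them. The sizes fell away quickly: ETV4 and IGF2BP1 were the 2 genes below −2 in the authors' deposited table. Another 5 lay between −2 and −1.5, 13 between −1.5 and −1, and the remaining 78 were lowered less than 2-fold. The median over the 98 genes was −0.77, or 58.6% of control, in the authors' deposited table. In all, 20 of 98 genes (20.4%) were lowered at least 2-fold, and this share is the background for the counts by gene group below. Of these 20 genes, 14 had a score of at least 50.

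**Figure D1:**
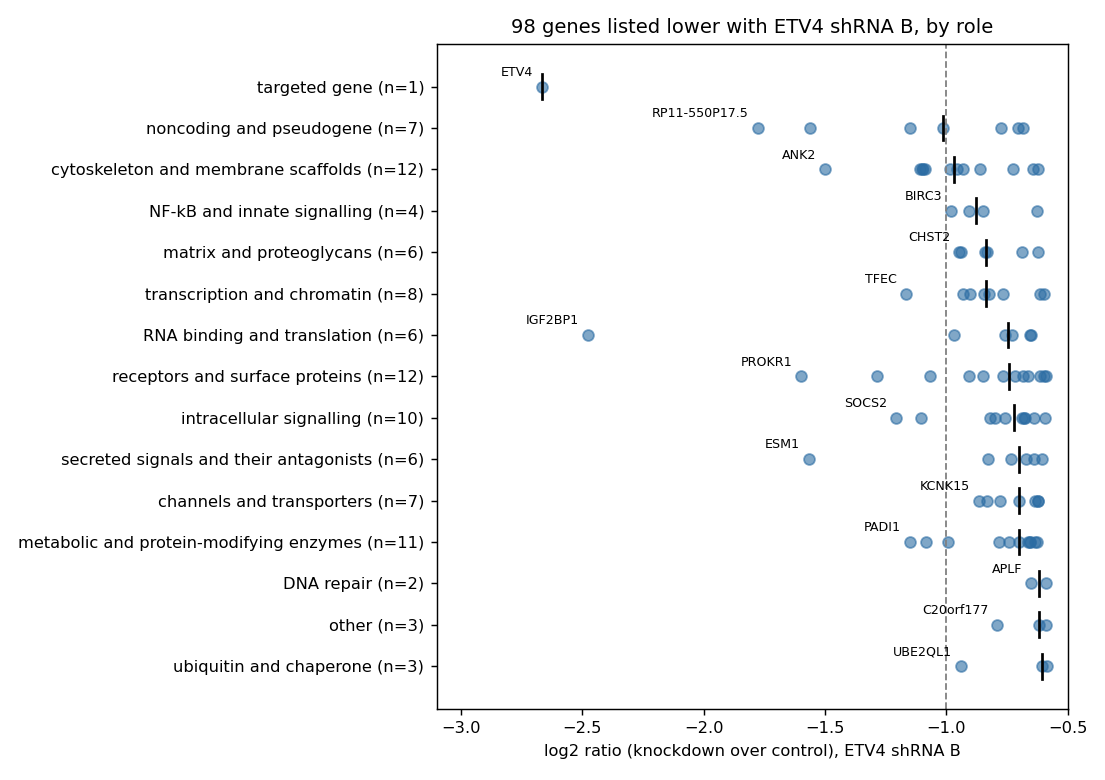
Log2 ratio of knockdown over control (horizontal axis) for each of the 98 genes in the authors' deposited table for ETV4 shRNA B, grouped by role; each point is a gene, each black bar the median of its group, and the dashed line a 2-fold decrease. ETV4 and IGF2BP1 are the only genes below −2, and most groups have their median between −1 and −0.6.

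Short stretches of promoter are shown first, because ETV4 binds a GGAA core. Promoter windows from RefSeq (build GRCh38.p14), reaching from 250 bases before to 50 bases after each annotated start, matched 73 of the 98 genes and gave 116 windows. Capitals mark the letters that match a motif on either strand. The first 5 stretches hold AGGAAGT, an ETS motif. The last holds TGANTCA, called the AP-1 motif here, in which any base was allowed at N. In the TFPI2 stretch that base is A. Only bases before the start are printed.

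ANK2 (chr4:112860877-112860943, plus strand, motif from 80 bases before the start): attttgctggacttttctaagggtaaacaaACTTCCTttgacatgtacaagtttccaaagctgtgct
FLT1 (chr13:28495145-28495211, minus strand, motif from 53 bases before the start): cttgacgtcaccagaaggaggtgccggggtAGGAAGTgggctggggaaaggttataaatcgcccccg
TFEC (chr7:116030866-116030932, minus strand, motif from 139 bases before the start): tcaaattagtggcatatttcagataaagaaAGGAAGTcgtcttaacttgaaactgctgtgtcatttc
BIRC3 (chr11:102317293-102317359, plus strand, motif from 161 bases before the start): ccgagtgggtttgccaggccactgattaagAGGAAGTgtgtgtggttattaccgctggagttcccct
PDE1C (chr7:32299329-32299384, minus strand, motif from 26 bases before the start): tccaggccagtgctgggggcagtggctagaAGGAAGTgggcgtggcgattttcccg
TFPI2 (chr7:93890804-93890870, minus strand, motif from 87 bases before the start): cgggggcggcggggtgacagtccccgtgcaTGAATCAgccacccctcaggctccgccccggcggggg

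The share of listed promoters with a match lay near that of promoters at large for AGGAAGT and AP-1, and its side depended on whether windows or genes were counted. AGGAAGT was in 8 of 116 windows (6.90%), against 8.24% of all 35116 windows in the RefSeq set, and in 8 of 73 genes (11.0%), against 9.91% of all genes there. The AP-1 motif was in 8 of 116 windows (6.90%), against 7.71% of all, and in 8 of 73 genes (11.0%), against 9.37%. Of the 20 genes lowered at least 2-fold, 13 had a window. ETV4, IGF2BP1 and RP11-550P17.5, which had the largest decreases, had none. For the 13 matched genes, AGGAAGT was in 3 of 24 windows (12.5%), the AP-1 motif in 1 (4.17%) and CGGAAGT in 0. CGGAAGT, the ETS motif with C before GGAAGT, was in 1 window (0.862%), that of CSGALNACT2, against 6.83% of all windows, or in 1.37% of genes against 8.18%. The composite motif GGAANTGANTCA, which contains the AP-1 motif, was in 0 of 116 windows against 0.185% of all. Several starts of a gene share sequence, so windows are not independent, and these shares carry no test. A match is not a binding site, and distal elements lie outside these windows.

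The listed vascular signalling genes were all lowered at least 2-fold. PROKR1, the G protein-coupled receptor for prokineticins, was at 33.0% of control (log2 ratio −1.60) in the authors' deposited table. PROKR1 overlaps the listed gene APLF on the same strand, so its value is uncertain. ESM1, a secreted proteoglycan of activated endothelium also called endocan, was at 33.8% (−1.57), and the VEGF receptor gene FLT1, whose promoter stretch is shown above, was at 41.0% (−1.29), in the authors' deposited table. These were the 3 listed members of a 27-gene vascular and angiogenic list, which was chosen with earlier results of these data known. Their median was −1.57, against −0.77 for all 98 genes, of which 20.4% were lowered at least 2-fold. With 3 genes and a list chosen in this way, the contrast is a description only and was not tested. Of 31 peptide and other G protein-coupled receptors, PROKR1 and the neuropeptide Y receptor NPY1R, at 53.4% (−0.91), were in the authors' deposited table.

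The other receptors and surface proteins ranged from 47.7% to 66.4% of control. CD55, which protects cells from complement, was at 47.7% (−1.07) in the authors' deposited table, where its score of 1022 was exceeded only by that of ETV4, at 3039. CXADR, a junction protein and the coxsackievirus and adenovirus receptor, was at −0.85, and SHISA3, an antagonist of FGF and Wnt receptors, at −0.77, in the authors' deposited table. The Fc receptor gene FCGR2A was at −0.72, the sialic acid lectin SIGLEC15 at −0.68 and the butyrophilin BTN3A2 at −0.66 in the authors' deposited table. FCGR2A and BTN3A2 have near-identical relatives that can share reads, so their values are uncertain. The cell adhesion molecule NEGR1 (−0.61), the ephrin receptor EPHA5 (−0.60) and the dendritic cell maturation marker CD83 (−0.59) lay close to the smallest decrease that the authors' deposited table holds. Of 29 immune surface and complement genes, CD55 and FCGR2A were listed. Of the 12 receptors and surface proteins, 3 were lowered at least 2-fold, against 20.4% of all 98 genes.

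Secreted signals formed a small group in which ESM1 stood apart from the other members. INHBA, the subunit of activin A, was at 56.3% (−0.83) in the authors' deposited table. Both EGF receptor ligands in the list, HBEGF at 60.2% (−0.73) and epigen (EPGN) at 64.1% (−0.64), were listed, and in the series they were in the authors' deposited table for ETV4 shRNA B alone. The ependymin-related protein EPDR1 was at −0.67 and the BMP antagonist noggin (NOG) at −0.61 in the authors' deposited table. Of 34 BMP, activin and Notch genes, INHBA, NOG and the Notch-induced repressor HEY1, at 52.4% (−0.93), were in the authors' deposited table.

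The RNA-binding protein IGF2BP1 had the largest decrease after the target. IGF2BP1 (ENSG00000159217, chromosome 17), an oncofetal protein that stabilises bound mRNAs, was at 18.0% of control (−2.48), or 5.57-fold lower, in the authors' deposited table. Its score ranked number 20 of 98, so the order by size and the order by score differed. Its relative IGF2BP3 was at 60.2% (−0.73) in the authors' deposited table and was in no other table of the series. The ribosome biogenesis factor PAK1IP1 was at 51.2% (−0.97) in the authors' deposited table. The RNA-binding zinc finger protein ZNF106, listed as ZFP106, was at −0.65, and the mitochondrial methionyl-tRNA synthetase MARS2 also at −0.65, in the authors' deposited table.

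**Figure D2:**
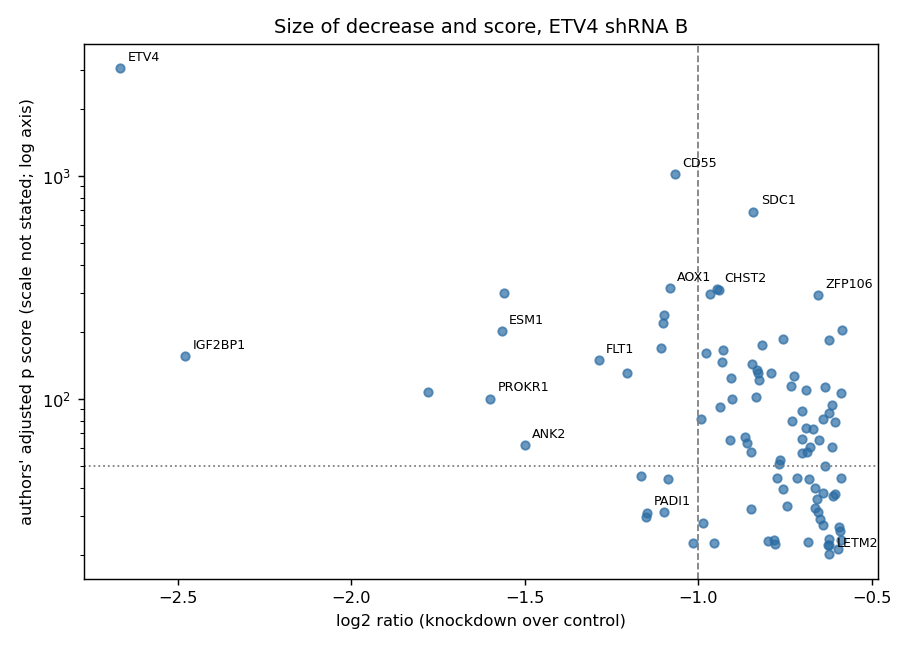
Log2 ratio (horizontal axis) against the authors' adjusted p score (vertical axis, log scale, units not stated) for the 98 genes listed with ETV4 shRNA B; the dashed line marks a 2-fold decrease and the dotted line a score of 50. ETV4, CD55 and SDC1 have the highest scores, while IGF2BP1, with a ratio of −2.48, has a score of 155, rank 20 of 98.

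Of 8 transcription and chromatin genes, 1 was lowered at least 2-fold, against 20.4% of all 98 genes, a difference that was not tested. TFEC, a basic helix-loop-helix factor of the MiT family, was at 44.6% (−1.16) in the authors' deposited table and was the single member of this group lowered at least 2-fold. The proto-oncogene MYB was at 53.5% (−0.90), the homeobox gene GBX2 at 55.6% (−0.85) and the zinc finger repressor ZBTB18, listed as ZNF238, at 56.4% (−0.83) in the authors' deposited table. The methyl-lysine reader L3MBTL3 was at −0.77 and the histone demethylase KDM7A, listed as JHDM1D, at −0.60 in the authors' deposited table. MED21, a core Mediator subunit, was at 65.3% (−0.61) and was the single one of 33 Mediator genes in the authors' deposited table. ETV4 was the single one of 28 ETS genes there.

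Signalling genes inside the cell included a pair of cyclin-dependent kinases. CDK6, which drives entry into S phase with D-type cyclins, was at 46.5% of control (−1.10), and the membrane-associated kinase CDK14 at 64.2% (−0.64), in the authors' deposited table. Of 42 cell cycle genes these were the members listed. The cytokine-signalling inhibitor SOCS2 was at 43.4% (−1.21) in the authors' deposited table. The phosphodiesterase PDE1C was at −0.82, the kinase anchor AKAP2 at −0.80, the phosphatase DUSP19 at −0.76 and the small GTPase RASL11A at −0.69 in the authors' deposited table. The phospholipase PLD1 and the Ras-association gene RASSF8 were both at −0.68 in the authors' deposited table.

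Genes of NF-kB and innate signalling were lowered to between 50.7% and 64.9% of control. BIRC3, an inhibitor of apoptosis induced by NF-kB, was at −0.98, and the ubiquitin ligase PELI1, which acts in Toll-like and interleukin receptor signalling, at −0.91, in the authors' deposited table. The inflammasome sensor NLRP3 was at −0.85 and the deubiquitinase OTUB2 at −0.62 in the authors' deposited table. Of 29 cytokine, chemokine and related signalling genes, BIRC3 and SOCS2 were listed. None of the 4 genes BIRC3, PELI1, NLRP3 and OTUB2 was lowered at least 2-fold, against 20.4% of all 98 genes. None of the 4 was in a MED25 table, where 39.8% of all 98 genes were in at least 1, but a group of 4 drawn up by hand after the values were seen says little.

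Matrix and proteoglycan genes numbered 6, and none was lowered at least 2-fold, against 20.4% of all 98 genes. The difference was not tested. SDC1, the heparan sulfate proteoglycan syndecan-1, was at 55.8% (−0.84) with the third highest score, 692, in the authors' deposited table. The sulfotransferase CHST2 was at −0.95 and the chondroitin sulfate enzyme CSGALNACT2 at −0.62 in the authors' deposited table. The basement membrane collagen COL4A6 was at −0.94, the serine protease inhibitor TFPI2 at −0.83 and fibronectin (FN1) at −0.69 in the authors' deposited table. Of 44 matrix, protease and adhesion genes, COL4A6, SDC1 and FN1 were listed, with a median of −0.84. No matrix metalloproteinase of that list was in the authors' deposited table.

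Cytoskeletal and membrane scaffold genes had 5 of 12 members lowered at least 2-fold, against 20.4% of all 98 genes. The group was drawn up by hand after the values were seen, and the difference was not tested. Ankyrin-2 (ANK2), which ties membrane proteins to spectrin, was at 35.4% in the authors' deposited table. Dysferlin (DYSF), a membrane repair protein, the centrosomal protein CEP19 and keratin 20 (KRT20) lay together at 46.4%, 46.7% and 46.7% in the authors' deposited table, with log2 ratios of −1.11, −1.10 and −1.10. RUNDC3B followed at −1.09, LRCH2 at −0.99, TAGLN3 at −0.95 and FAM110C at −0.93 in the authors' deposited table. Titin (TTN), the giant muscle protein, was at −0.86, the spectrin-binding protein EPB41L3 at −0.72, the scramblase family gene PLSCR4 at −0.64 and the phospholipid-binding protein ANXA1 at −0.62 in the authors' deposited table. KRT20 was the single one of 34 keratin and epithelial junction genes listed.

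Enzymes that modify arginine were lowered as a neighbouring pair. The deiminases PADI1 and PADI2, which turn arginine in proteins into citrulline, were at 45.1% (−1.15) and 59.7% (−0.74) in the authors' deposited table, and no other protein-coding gene lies between them on chromosome 1. Aldehyde oxidase (AOX1) was at 47.2% (−1.08) with a score of 314 in the authors' deposited table. Together with PLD1 they made up the 4 listed of 22 phospholipid, aldehyde and arginine-modifying enzymes, with a median of −0.91. Carboxypeptidase M (CPM) was at −0.99, the peptidase-like protein PHEX at −0.78 and the imprinted hydrolase MEST at −0.70 in the authors' deposited table. HSD17B2, which inactivates oestradiol and testosterone, and the methyltransferase-domain gene PCMTD1 were both at −0.66 in the authors' deposited table. The ADP-ribosyltransferase TIPARP and the fatty acid elongase ELOVL4 were both at −0.63, and the phosphatase ACP7, listed as AC011443.1, was at −0.66, in the authors' deposited table.

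Channels and transporters numbered 7, and none was lowered at least 2-fold, against 20.4% of all 98 genes. The difference was not tested. The potassium channel KCNK15 was at 54.9% (−0.86), collectrin (TMEM27), a partner of amino acid transporters, at 56.1% (−0.83) and the lipid transporter ABCA8 at 58.3% (−0.78) in the authors' deposited table. The thiamine transporter SLC19A2 was at −0.70, the zinc transporter SLC30A4 at −0.63 and the mitochondrial membrane gene LETM2 at −0.62 in the authors' deposited table. LETM2 had the lowest score of the 98 genes, 20.1. Of 40 ion channel and transporter genes, KCNK15 and SLC7A11 were listed. The cystine transporter SLC7A11, at 64.9% (−0.62), was the single one of 25 amino acid stress genes in the authors' deposited table.

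The remaining coding genes were lowered mildly. UBE2QL1, a ubiquitin-conjugating enzyme gene, was at −0.94, and the ubiquitin ligase adaptor KLHL15 at −0.61, in the authors' deposited table. The HSP70 co-chaperone BAG3, at 66.6% (−0.59), had the smallest decrease of all 98 genes. The DNA repair factor APLF was at −0.65 and the DNA-binding protein NABP1, listed as OBFC2A, at −0.59 in the authors' deposited table. C20orf177 was at −0.79, PRRG4 at −0.62 and C4orf32 at −0.59 in the authors' deposited table.

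Noncoding transcripts and a pseudogene made up 7 of the 98 genes. At least 2-fold decreases were seen in 4 of these 7, against 20.4% of all 98 genes, a difference that was not tested. RP11-550P17.5, antisense to the olfactory receptor gene OR10J1, was at 29.2% (−1.78) in the authors' deposited table, the largest decrease after ETV4 and IGF2BP1. AC002456.2, antisense to CDK14, was at 33.9% (−1.56), against 64.2% for CDK14 itself, in the authors' deposited table. RP11-887P2.1, antisense to SOCS2, was at 49.5% (−1.02), and the pseudogene RP11-64D22.2 at 45.0% (−1.15), in the authors' deposited table. RP11-59D5__B.2, antisense to EYS, was at −0.77, RP11-736K20.5, antisense to PRSS23, at −0.70 and AP000695.4, antisense to CLDN14, at −0.69 in the authors' deposited table. OR10J1, EYS, PRSS23 and CLDN14 were not listed with this shRNA, and a missing gene cannot be called unchanged. In the other comparisons, EYS was listed with ETV4 shRNA A (−1.06) and CLDN14 with MED25 shRNA B (−0.76). PRSS23 was listed with ETV4 shRNA A (−0.65) and MED25 shRNA A (−0.59), and OR10J1 with none. The labels do not say if counting used strand, so reads of a gene and its antisense partner may not have been told apart and these values are uncertain. APLF and PROKR1 overlap on the same strand of chromosome 2 in GENCODE release 29, so their values are uncertain too.

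Values from the other ETV4 shRNA stand beside those of shRNA B only as a description, because both comparisons used the same 2 control libraries. The genes given here were picked as examples after their values were seen and are no tally of either direction. KRT20 was at −1.10 with B and −2.16 with A, FCGR2A at −0.72 and −2.29, PLD1 at −0.68 and −2.03, and KCNK15 at −0.86 and −2.29 in the authors' deposited tables. ETV4 itself was at 15.8% of control with B and 26.1% with A in the authors' deposited tables. ESM1 was at −1.57 with B and −0.87 with A, and DYSF at −1.11 and −0.80, in the authors' deposited tables. FLT1 was at −1.29 and −1.15, TFEC at −1.16 and −1.14 and AOX1 at −1.08 and −1.11, which are close pairs, in the authors' deposited tables. Differences between shRNAs were not tested, since no value per library was analysed here.

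**Figure D3:**
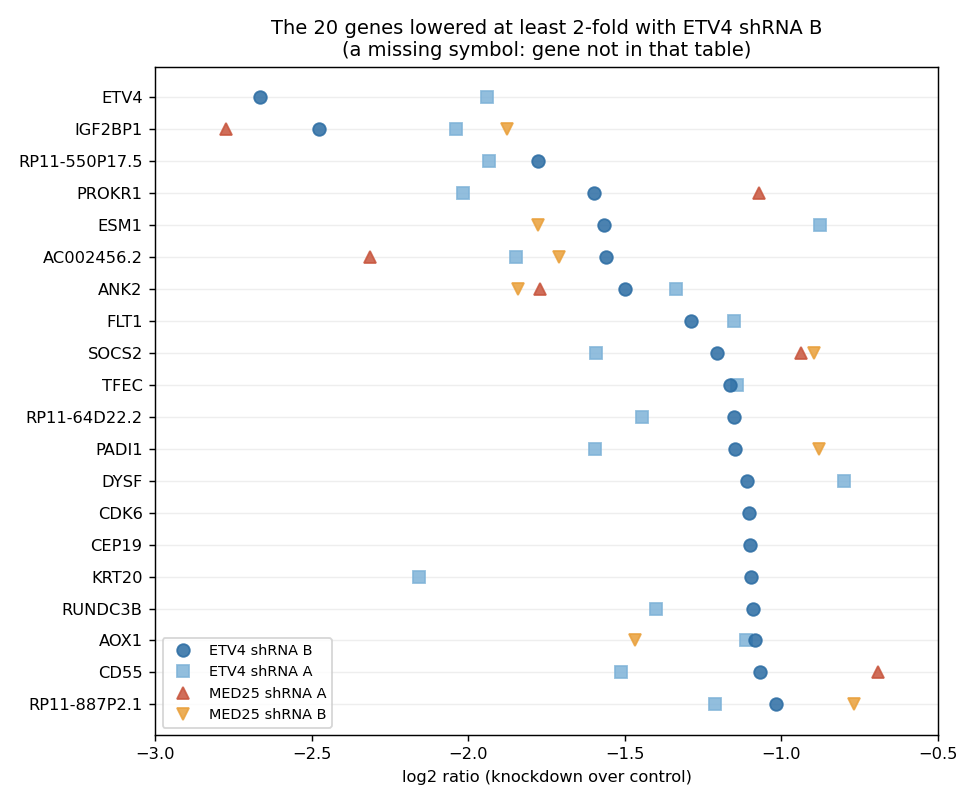
Log2 ratios of knockdown over control for the 20 genes lowered at least 2-fold with ETV4 shRNA B (circles), with the values of the same genes in the authors' deposited tables for ETV4 shRNA A (squares), MED25 shRNA A (triangles up) and MED25 shRNA B (triangles down). CDK6 and CEP19 have a value for ETV4 shRNA B alone, while IGF2BP1, AC002456.2, ANK2 and SOCS2 have all 4 values.

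Some genes were in the table of ETV4 shRNA B and in no other table of the series. CDK6 and CEP19 were the members of this set lowered at least 2-fold, and CEP19 had a score of 238. The other members were lowered by less than 2-fold. Among them were CPM, LRCH2, PAK1IP1, PELI1, TFPI2, ZNF238 and C20orf177, from −0.99 to −0.79 in the authors' deposited table. HBEGF, IGF2BP3, EPB41L3, SLC19A2 and EPDR1, from −0.73 to −0.67, had smaller decreases than the median of −0.77 over all 98 genes. PAK1IP1 and ZFP106, at scores of 295 and 291 in the authors' deposited table, belong here as well, so absence from the other tables was not limited to genes of low score. A gene missing from a table may still have been lower, by less than the smallest decrease listed or with a score under the lowest listed.

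The MED25 comparisons share no control library with ETV4 shRNA B, and 39 of the 98 genes were in at least 1 MED25 table. MED25 shRNA A listed 25 of the 98 genes (25.5%), which were 3.18% of its own 786 genes. MED25 shRNA B listed 27 of the 98 genes (27.6%), which were 7.22% of its own 374 genes. Of the 20 genes lowered at least 2-fold with ETV4 shRNA B, 6 were listed with MED25 shRNA A and 8 with MED25 shRNA B, against 19 of the other 78 genes in each case. ETV4 itself was in neither MED25 table.

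Genes shared with ETV4 shRNA B lay towards the larger decreases of the MED25 tables. Of the 25 genes shared with MED25 shRNA A, 15 (60.0%) were lowered at least 2-fold by it, against 24.0% of all 786 genes in the authors' deposited table. Of the 27 genes shared with MED25 shRNA B, 13 (48.1%) were lowered at least 2-fold by it, against 20.1% of all 374 genes in the authors' deposited table. The medians of the shared genes in the MED25 tables were −1.18 with shRNA A and −0.97 with shRNA B, against −0.77 and −0.76 for the genes not shared. These are descriptions of lists with a listing minimum and were not tested. Within the shared genes, 19 of 25 with MED25 shRNA A and 19 of 27 with MED25 shRNA B were lower there than with ETV4 shRNA B.

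**Figure D4:**
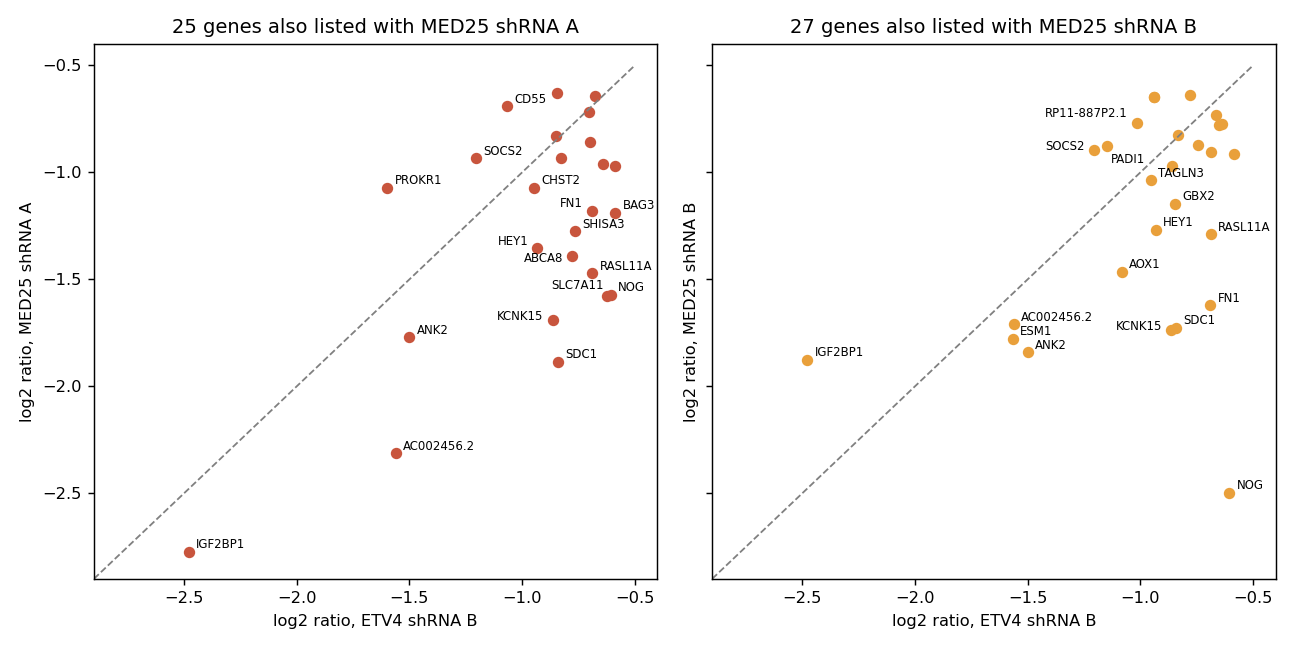
Log2 ratios with ETV4 shRNA B (horizontal axis) against those with MED25 shRNA A (left, 25 genes) and MED25 shRNA B (right, 27 genes), from the authors' deposited tables; each point is a gene listed in both, the dashed line marks equal values, and genes at or below −1 on either axis are named. Points under the line, 19 in each panel, were lower with the MED25 shRNA.

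Among the 13 genes in both MED25 tables were 3 that were not listed with ETV4 shRNA A. The homeobox gene GBX2 was at −0.85 with ETV4 shRNA B, −0.63 with MED25 shRNA A and −1.15 with MED25 shRNA B in the authors' deposited tables. FN1 was at −0.69, −1.18 and −1.62 and BAG3 at −0.59, −1.19 and −0.91, in the same order, in the authors' deposited tables. The other 10 were IGF2BP1, AC002456.2, ANK2, SOCS2, HEY1, KCNK15, SDC1, RASL11A, CDK14 and NOG. NOG had the widest spread of these, from 65.7% of control with ETV4 shRNA B to 17.7% with MED25 shRNA B, by the authors' deposited tables. Over all 13 genes the median ratio was −0.85 with ETV4 shRNA B, −1.47 with MED25 shRNA A and −1.62 with MED25 shRNA B.

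Single MED25 tables held another 26 genes, 12 for shRNA A and 14 for shRNA B. PROKR1 (−1.07), CHST2 (−1.07), SHISA3 (−1.28), ABCA8 (−1.39) and SLC7A11 (−1.58) were in the authors' deposited table for MED25 shRNA A alone. ESM1 (−1.78), AOX1 (−1.47), TAGLN3 (−1.04), TTN (−0.97), PADI1 (−0.88) and PADI2 (−0.87) were in the authors' deposited table for MED25 shRNA B alone. Of the 11 enzymes in the list, 5 were thus shared with MED25 shRNA B and 1 with A, while of the 12 receptors and surface proteins 4 were shared with A and 0 with B. The background shares are 25.5% for A and 27.6% for B, and these groups were drawn up with the values in view. FLT1, TFEC, DYSF, KRT20, CDK6, CEP19, RUNDC3B, RP11-550P17.5 and RP11-64D22.2 were lowered at least 2-fold with ETV4 shRNA B and were in neither MED25 table.

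By position, chromosomes 2 and 7 held the most listed genes. These chromosomes were singled out after the values were seen. Of 91 protein-coding genes, 13 (14.3%) were on chromosome 2 and 11 (12.1%) on chromosome 7, against 6.24% and 4.56% of all 19951 protein-coding genes in GENCODE release 29. Counting noncoding genes, chromosome 7 carried 12 of the 98 genes: IGF2BP3, PDE1C, EPDR1, INHBA, RUNDC3B, CDK14, AC002456.2, CDK6, TFPI2, TFEC, MEST and JHDM1D, in their order along it. The shares on chromosome 7 among matched genes were 7.04% for ETV4 shRNA A, 5.72% for MED25 shRNA A and 5.11% for MED25 shRNA B. Those on chromosome 2 were 6.42%, 5.98% and 7.67%, in the same order. Chromosome 19, which holds 7.38% of protein-coding genes, carried 1 listed gene, AC011443.1. Its share was also low for ETV4 shRNA A, at 2.28% of matched genes, against 6.65% for MED25 shRNA A and 7.95% for MED25 shRNA B. No reason for this spread was tested, and the number of genes that could have been listed on each chromosome is not known.

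**Figure D5:**
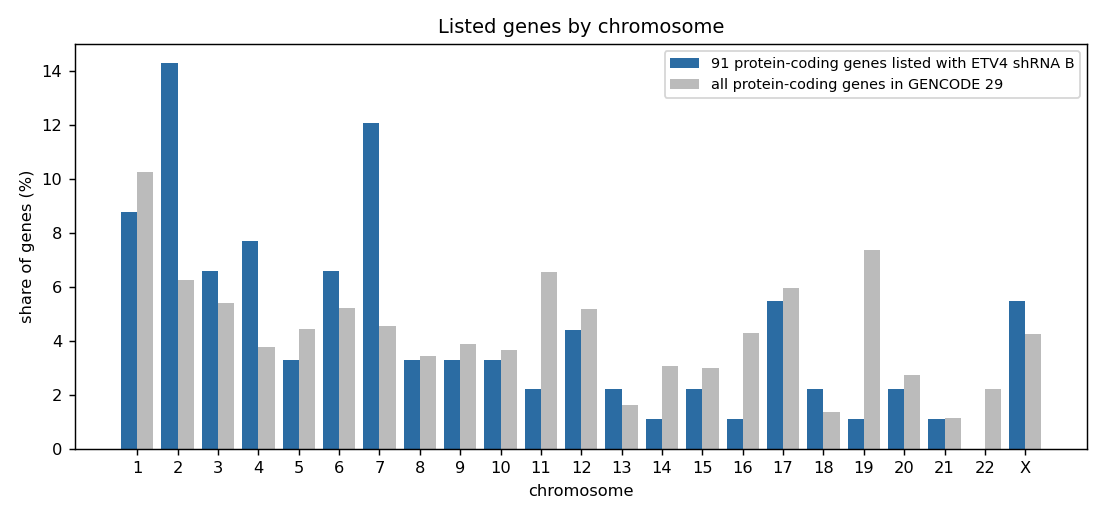
Share of genes on each chromosome, in percent, for the 91 protein-coding genes listed with ETV4 shRNA B (blue bars) and for all protein-coding genes of GENCODE release 29 (grey bars). Chromosomes 2 and 7 have blue bars of 14.3% and 12.1%, above grey bars of 6.24% and 4.56%, and chromosome 19 has the reverse.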

How the data were processed

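Per the labels' protocols, total RNA (Qiagen RNeasy) was made into libraries by Illumina protocols. Per the submitters' processing notes, the aligner was Novoalign 3.08.02 and the build hg19. The labels do not name the counter, strand setting, scaling, test or listing minimum. The authors' deposited tables hold 1 log2 ratio per gene. Beside it the authors deposited an adjusted p, used here as a score because its scale is not stated. It was used to rank and filter only; its minimum of 20.1 would be 0.00985 if it were minus 10 times a log10 value. Which library came first in a ratio was read from the header's library numbers and from the targeted gene's sign, and MED25 ratios were turned round. Depth per library is unknown, so no interval, replicate spread or test of a ratio was possible, and the tables stand as 1 comparison each.

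Genes were joined by Ensembl identifier. GENCODE release 29, on a later build than hg19, gave gene types, chromosomes and neighbours for all 98 genes and no coordinates are taken from it. Promoter windows come from RefSeq (GRCh38.p14) and carry the coordinates of that build. Motifs were searched on both strands with a scan tested on simulated sequences. Every member may be named, except that the results of 2 listed genes are counted but not reported here. The members, 16 gene lists and thresholds were chosen with earlier results of these data known, and role groups were assigned by hand after the values were seen. Every fixed list is reported once, in the report or among the other observations. Alternatives were a score of at least 50, protein-coding genes only, leaving out ETV4, a log2 ratio at or below −1, joining by symbol, and other motif windows. Scripts ran in Python 3.11.15, with matplotlib 3.10.9 for figures and pandas 2.3.3 for tables.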

Additional observations from a re-analysis of the deposited data

How the results depend on the processing

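The count of listed genes was 98, or 61 at a score of at least 50 and 20 at a log2 ratio at or below −1, where the median moved from −0.77 to −1.16. At that ratio the genes shared with MED25 shRNA A numbered 6 in place of 25, those shared with MED25 shRNA B 8 in place of 27, and members of the gene lists 10 in place of 25. These alternatives are subsets of the same table by construction. Within 100 bases of the start, the AGGAAGT and AP-1 shares were each 3.45% of windows, against 5.04% and 4.15% of all windows. Over the 24 windows of the 13 matched genes lowered at least 2-fold, CGGAAGT was in 0, AGGAAGT in 12.5% and AP-1 in 4.17%. The remaining alternatives stayed within 1.5 times the count, or within the 95% Wilson interval of the share over windows, which are not independent. The alternatives for the gene lists were chosen after seeing the data. So was leaving out noncoding genes and genes that overlap another listed gene, which gave 20 genes shared with MED25 shRNA A and 22 with MED25 shRNA B. No paired analysis was possible because the files hold no values per library, and leaving out single replicates was not run because it needs such values.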

Other observations

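Several gene lists had few or no members in the authors' deposited table for ETV4 shRNA B, which is the shortest of the series, with 98 genes against 495 for ETV4 shRNA A, 786 for MED25 shRNA A and 374 for MED25 shRNA B. For 25 amino acid stress genes, 1 was listed with ETV4 shRNA B, against 15 for ETV4 A, 18 for MED25 A and 0 for MED25 B in the authors' deposited tables. No histone gene of 24 was listed with ETV4 shRNA B, against 3 for ETV4 A, 16 for MED25 A and 8 for MED25 B in the authors' deposited tables. No ERK output and feedback gene of 26 was listed with ETV4 shRNA B, against 2 for ETV4 A and 8 for each MED25 shRNA in the authors' deposited tables. No type I interferon gene of 30 was listed with ETV4 shRNA B, against 4 for ETV4 A, 0 for MED25 A and 1 for MED25 B in the authors' deposited tables. Both ETV4 comparisons share their control libraries, as do both MED25 comparisons, and these lists were chosen with earlier results known. The counts were not tested, and a missing gene cannot be called unchanged.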
